A study of Mus musculus with 30 samples.

Results

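The proteasome genes were taken as every row of the deposited table whose gene name begins with Psm, a letter from a to g and a digit, which gave 47 of 17420 genes. Of these, 46 encode proteasome subunits, activators, an inhibitor or assembly chaperones. The remaining gene, Psmc3ip, matches the pattern but encodes a meiotic recombination factor that is no part of the proteasome. Psma8 and Psmb11, the testis and thymus subunits, were not analysed here. All 47 genes passed the filter on low signal in both tissues.

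The study set mice that lack Gaa, the lysosomal acid alpha-glucosidase whose loss causes Pompe disease, beside mice that carry it, by RNA-seq of poly(A) RNA from quadriceps muscle and whole spinal cord. It covered 30 libraries from 15 male mice aged 4 months, each mouse giving both tissues, in 5 groups of 3 mice. The first pair of groups was Gaa WT and Gaa KO on the B6;129 background, called WT B6;129 and KO B6;129 here. The second pair was Gaa WT and Gaa KO on the B6;129;DBA2/J background, called WT DBA and KO DBA, and both groups, controls included, carried Ltbp4D36/D36, an allele of a latent TGF-beta binding protein. The fifth group, called treated, had the KO DBA genotype, Ltbp4D36/D36 included, and had received AAV9-sp7-Δ8-hGAAco, a vector for secreted human GAA, by injection into the temporal vein at postnatal day 1 to 2. Its transgene was driven by a liver-muscle promoter (LiMP), so the labels name no promoter chosen for the cord. The other groups are labelled untreated, and no control vector is named.

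The proteasome is the main protease of the cytosol and nucleus. Its 20S core is a barrel of alpha and beta rings whose catalytic sites lie inside, on the beta subunits Psmb5, Psmb6 and Psmb7. The 19S cap recognises ubiquitin-tagged proteins, removes the tag and unfolds them with a ring of ATPases. Interferon-exposed cells and immune cells build instead the immunoproteasome, in which Psmb8, Psmb9 and Psmb10 take the places of Psmb5, Psmb6 and Psmb7 and yield peptides for MHC class I. In skeletal muscle the ubiquitin-proteasome system is known for the breakdown of contractile proteins during wasting.

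Promoter windows are shown for 6 genes whose levels are compared throughout: a constitutive catalytic subunit, 2 immune catalytic subunits, both subunits of the interferon-inducible activator PA28 and the activator Psme4. The windows are RefSeq sequences of build GRCm38.p6, written 5′ to 3′ along the gene, and 40 of the 47 genes had one. Each runs from 250 bases before to 50 bases after the RefSeq start nearest to the gene start in the GENCODE annotation. For Psmb8 and Psme1 the window lies wholly inside the gene as GENCODE gives it, which begins at 34197721 and 55578123. Capitals mark matches, on either strand, to 3 motifs: the antioxidant response element TGANNNNGC, the gamma-activated site TTCNNNGAA and a core of the interferon-stimulated response element, GAAA followed by any 2 bases and GAAA.
Psmb5, chr14:54617946-54618245, minus strand, with 2 antioxidant matches: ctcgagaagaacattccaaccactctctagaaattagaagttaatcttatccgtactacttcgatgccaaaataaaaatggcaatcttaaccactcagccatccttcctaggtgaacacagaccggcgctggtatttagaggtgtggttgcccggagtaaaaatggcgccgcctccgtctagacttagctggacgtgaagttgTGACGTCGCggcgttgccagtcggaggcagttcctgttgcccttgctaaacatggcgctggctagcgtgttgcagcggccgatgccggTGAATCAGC
Psmb8, chr17:34197945-34198244, plus strand, with a gamma-activated match followed by an antioxidant match: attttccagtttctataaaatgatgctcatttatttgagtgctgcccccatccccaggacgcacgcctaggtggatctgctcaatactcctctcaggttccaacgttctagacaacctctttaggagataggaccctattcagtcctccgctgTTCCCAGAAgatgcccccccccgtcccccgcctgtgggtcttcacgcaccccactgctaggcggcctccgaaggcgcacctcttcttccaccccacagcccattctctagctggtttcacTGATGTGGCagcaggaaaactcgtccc
Psmb10, chr8:105938343-105938642, minus strand, with no match: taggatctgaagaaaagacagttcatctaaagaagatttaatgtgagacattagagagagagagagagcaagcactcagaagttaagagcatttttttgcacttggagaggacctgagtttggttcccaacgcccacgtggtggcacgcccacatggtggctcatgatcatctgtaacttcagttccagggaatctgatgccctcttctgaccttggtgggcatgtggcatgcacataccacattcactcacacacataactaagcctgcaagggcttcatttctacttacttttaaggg
Psme1, chr14:55578244-55578543, plus strand, with an interferon-core match: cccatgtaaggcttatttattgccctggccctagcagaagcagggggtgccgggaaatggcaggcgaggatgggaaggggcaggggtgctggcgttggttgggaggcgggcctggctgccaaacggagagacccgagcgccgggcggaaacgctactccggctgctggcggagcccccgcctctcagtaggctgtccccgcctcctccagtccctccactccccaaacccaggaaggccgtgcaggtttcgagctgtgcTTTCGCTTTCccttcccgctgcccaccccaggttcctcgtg
Psme2, chr14:55591052-55591351, minus strand, with an antioxidant match: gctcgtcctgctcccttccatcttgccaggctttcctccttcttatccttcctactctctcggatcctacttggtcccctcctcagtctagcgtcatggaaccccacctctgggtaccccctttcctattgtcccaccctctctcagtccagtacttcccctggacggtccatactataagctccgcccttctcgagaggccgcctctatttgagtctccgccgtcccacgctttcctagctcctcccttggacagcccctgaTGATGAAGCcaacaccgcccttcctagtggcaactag
Psme4, chr11:30771525-30771824, plus strand, with an antioxidant match on the other strand: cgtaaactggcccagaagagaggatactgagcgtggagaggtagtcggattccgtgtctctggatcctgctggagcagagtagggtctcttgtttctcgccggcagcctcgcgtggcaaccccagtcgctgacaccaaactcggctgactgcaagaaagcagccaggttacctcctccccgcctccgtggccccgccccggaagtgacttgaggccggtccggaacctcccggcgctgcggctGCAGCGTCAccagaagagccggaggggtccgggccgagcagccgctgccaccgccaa

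The antioxidant motif was found in 22 of the 40 windows (55%), against 41.3% of 32851 mouse promoters of the same length. The gamma-activated motif was found in 3 windows (7.5%, against 8.30% of all promoters) and the interferon core in 5 (12.5%, against 3.44%). The letters CCAAT, the core of another promoter element, were in 14 windows (35%, against 37.4%). Matches of different motifs overlapped in 2 of the windows. A match in these letters is a description of the window, and a window without one says only that the letters are not in it.

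Depth, as reads recovered from the deposited signal, was 16854081 to 37136087 per quadriceps library and 19208733 to 34207758 per cord library. The signal is each gene's read count, with 0.5 added, divided by a scaled library size, so it is a level per library that is not corrected for gene length. The Gaa transcript, which checks the genotype labels, was lower in KO than in WT by -4.07 and -3.79 (log2) in quadriceps and by -3.70 and -3.47 in cord, on B6;129 and DBA. Skeletal muscle markers summed to 150188 to 259199 in quadriceps and neuron markers to 3892 to 6278 in cord. Muscle markers were also present in cord, at 117 to 1848, with the highest values in the WT DBA group. The column names put all B6;129 libraries in a set A and all DBA libraries in a set B, so the background, the Ltbp4D36/D36 allele and the set cannot be told apart. The mitochondrial share of the cord libraries was 6.99% to 7.70% in set A and 13.2% to 17.1% in set B. Nothing in the labels speaks to separate litters or cultures beyond the mouse, so p-values measure the spread between these mice.

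In quadriceps, loss of Gaa went with higher transcripts of many 20S subunits and assembly factors, with higher transcripts of some 19S subunits and with a fall of the activator Psme4. On B6;129, 18 of the 47 genes rose and 2 fell at an adjusted p under 0.05 (limma, Benjamini-Hochberg over 14113 genes), or 20 genes where 35.8% of all tested genes were called in either direction, 16.7% higher and 19% lower. On DBA, 21 rose and 3 fell, where 39.4% of all tested genes were called, 17.1% higher and 22.3% lower. The share of the 47 genes called in either direction lay somewhat above that of all tested genes, and this gap was not tested. More of the 47 genes rose than fell, unlike all tested genes. The median difference of the 47 genes was 0.13 on B6;129 and 0.15 on DBA (log2), beside -0.02 and -0.04 for all tested genes. WT and KO libraries did not overlap for 28 of the 47 genes on B6;129, beside 53.9% of all tested genes. Without KO B6;129 replicate 3, the count of called genes on B6;129 was 12.

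The constitutive catalytic subunits did not move as a set. Psmb5, the chymotrypsin-like site, stood at a signal of 80.2, 80.7 and 90.7 in WT B6;129 quadriceps and at 135, 145 and 156 in KO. On DBA it stood at 81.5, 88.4 and 92.5 in WT, at 106, 112 and 119 in KO and at 83.6, 85.0 and 104 in treated mice. KO libraries lay above all WT libraries on both backgrounds, and treated libraries lay below KO. The log2 difference of KO from WT was 0.79 ± 0.09 (SE) on B6;129 (limma adjusted p = 2.73e-05) and 0.36 ± 0.09 on DBA (limma adjusted p = 0.00758). The difference of these effects, -0.43 ± 0.13, did not pass the test (limma adjusted p = 0.213). Psmb6, the caspase-like site, rose from 147, 148 and 149.8 to 162, 173 and 181 on B6;129. On DBA it went from 156, 161 and 162 in WT to 182, 184 and 207 in KO, with 141, 151 and 152 in treated mice. Its groups did not overlap, and the differences of 0.21 ± 0.06 and 0.26 ± 0.06 passed (limma adjusted p = 0.0196 and 0.00606). The B6;129 call for Psmb6 was lost, in the same direction, without KO replicate 2 or 3 or WT replicate 6 (limma adjusted p = 0.0559, 0.0894 and 0.0537). Psmb7, the trypsin-like site, was the member with the highest level per kilobase in WT quadriceps, and did not pass in either comparison. It gave 272, 277 and 291 in WT B6;129 against 255, 262 and 269 in KO, without overlap, a difference of -0.10 ± 0.06 (limma adjusted p = 0.193).

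Among the immune catalytic subunits, Psmb10 rose on both backgrounds, whereas Psmb8 and Psmb9 passed only on DBA; the difference between backgrounds did not pass for any of them. Psmb10 stood at 12.9, 15.9 and 16.2 in WT B6;129 and at 18.8, 21.1 and 27.4 in KO. On DBA it stood at 12.3, 14.6 and 16.1 in WT, at 21.7, 23.6 and 24.1 in KO and at 13.5, 13.6 and 15.0 in treated mice. KO lay above WT in every library of both pairs, by 0.55 ± 0.14 and 0.68 ± 0.14 (log2; limma adjusted p = 0.00707 and 0.00178). Psmb8 stood at 4.16, 5.56 and 6.30 in WT B6;129 and at 5.07, 6.78 and 12.0 in KO, so these groups overlapped, with 1 KO library far above the others. On DBA it stood at 3.87, 4.13 and 5.00 in WT and at 6.97, 7.98 and 10.6 in KO, without overlap. The difference was 0.47 ± 0.29 on B6;129 (limma adjusted p = 0.237) and 0.89 ± 0.29 on DBA (limma adjusted p = 0.0283). Psmb9 stood at 2.49, 3.35 and 3.72 in WT B6;129 and at 2.24, 2.73 and 5.87 in KO, which overlapped, a difference of 0.07 ± 0.33 (limma adjusted p = 0.887). On DBA it stood at 1.33, 1.72 and 2.13 in WT and at 2.59, 4.94 and 6.5 in KO, a difference of 1.15 ± 0.33 (limma adjusted p = 0.0136). Psmb9 rested on 20 to 178 reads per quadriceps library. The DBA calls depended on single libraries: without KO DBA replicate 8 Psmb8 gave 0.73 (limma adjusted p = 0.102) and Psmb9 gave 0.90 (limma adjusted p = 0.0626), and without WT DBA replicate 1 they gave 0.82 (0.0815) and 1.02 (0.0525). Psmb8 was also lost without WT DBA replicate 3 or KO DBA replicate 6. The difference of KO effects between backgrounds was 0.42 ± 0.41 for Psmb8 (limma adjusted p = 0.767), 1.08 ± 0.47 for Psmb9 (0.411) and 0.12 ± 0.20 for Psmb10 (0.867).

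**Figure D1:**
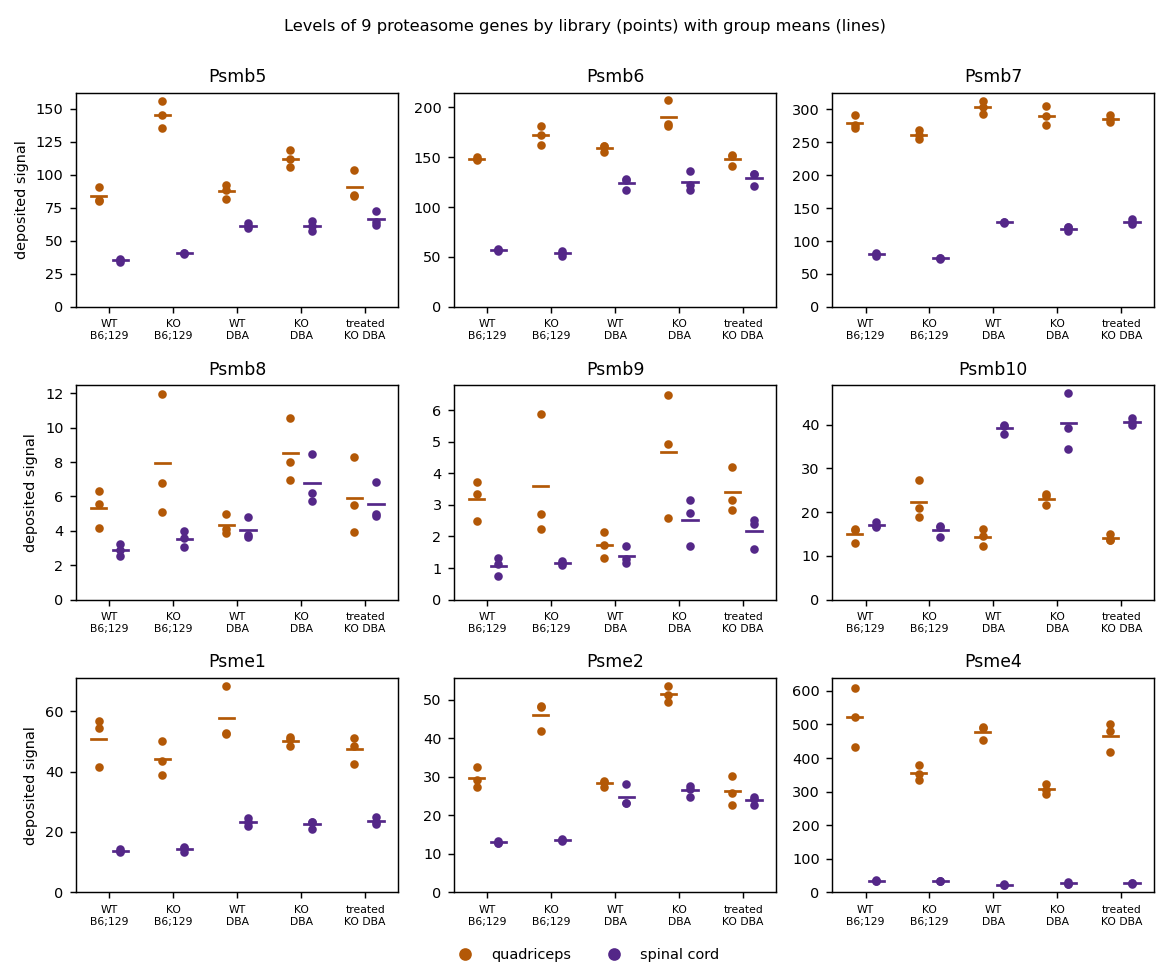
Deposited signal of 9 proteasome genes (linear axes from 0) in each of the 5 groups, with 1 point per library and a line at the mean of 3 libraries, for quadriceps and spinal cord. In quadriceps Psmb5, Psmb10 and Psme2 libraries of KO mice lay above those of WT mice on both backgrounds and Psme4 libraries lay below, while Psmb7 and Psme1 overlapped or differed little.

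Summed macrophage markers were higher in KO than in WT quadriceps on both backgrounds, as Psmb10 was, whereas Psmb8 and Psmb9 overlapped between WT and KO on B6;129. In treated mice the sum overlapped that of WT DBA, whereas every Psmb9 library lay above those of WT DBA. All 14 markers fixed for macrophages and microglia were in the table, none without reads, and their summed quadriceps signal was 77.6 to 99.6 in WT B6;129, 384 to 532 in KO B6;129, 122 to 184 in WT DBA, 325 to 628 in KO DBA and 89.8 to 216 in treated mice. Macrophages are known to express the immunoproteasome. Markers of other cell types moved as well. Summed fibroblast markers (6 of 6 in the table) were 506 to 781 in WT B6;129, 1223 to 1394 in KO B6;129, 719 to 853 in WT DBA, 926 to 1727 in KO DBA and 855 to 1219 in treated mice. Summed endothelial markers (9 of 9) were 392 to 491, 254 to 274, 319 to 389, 205 to 272 and 353 to 531 in the same order of groups. Summed skeletal muscle markers (10 of 10) were 195660 to 210947 in WT B6;129 and 160810 to 174311 in KO B6;129, and B cell markers (3 of 6) 55.3 to 145 and 15.4 to 34.7. On DBA both were lower in every KO library than in every WT library too. All 4 sums were without overlap between WT and KO on both backgrounds, and no gene of them was without reads. The part of these cell types in the result was not tested. Of 13 T and NK cell markers 2 were in the table. In tissue lysates such as these, fewer cells of a type and less RNA per cell cannot be told apart.

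Per kilobase of transcript, the immune subunits were a small part of the catalytic transcripts in muscle. Psmb8, Psmb9 and Psmb10 together made up 3.18% ± 0.296 (SD, n = 3) of the signal per kilobase of the 6 catalytic genes in WT B6;129 quadriceps and 3.90% ± 0.868 in KO B6;129, and these groups overlapped. On DBA the share was 2.59% ± 0.277 in WT, 4.10% ± 0.372 in KO and 3.07% ± 0.269 in treated mice. WT and KO did not overlap, and treated mice overlapped neither of them. Each immune subunit was also set against the subunit it replaces, as a log2 ratio of signals with 0.5 added that is not corrected for length, so only its change between groups is read. The ratio of Psmb10 to Psmb7 went from -4.18 to -3.53 on B6;129 and from -4.37 to -3.62 on DBA, was -4.30 in treated mice, and did not overlap between WT and KO in either pair. The ratios of Psmb8 to Psmb5 and of Psmb9 to Psmb6 overlapped between WT and KO on B6;129 and did not on DBA. In treated mice the ratio of Psmb9 to Psmb6 was -5.27, beside -5.29 in KO DBA and -6.18 in WT DBA. It overlapped KO DBA and not WT DBA. That of Psmb8 to Psmb5 was -3.88 in treated mice, beside -3.66 in KO DBA and -4.19 in WT DBA, and overlapped both. On B6;129 the ratio of Psmb8 to Psmb5 was lower on average in KO, at -4.19 against -3.87 in WT.

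**Figure D2:**
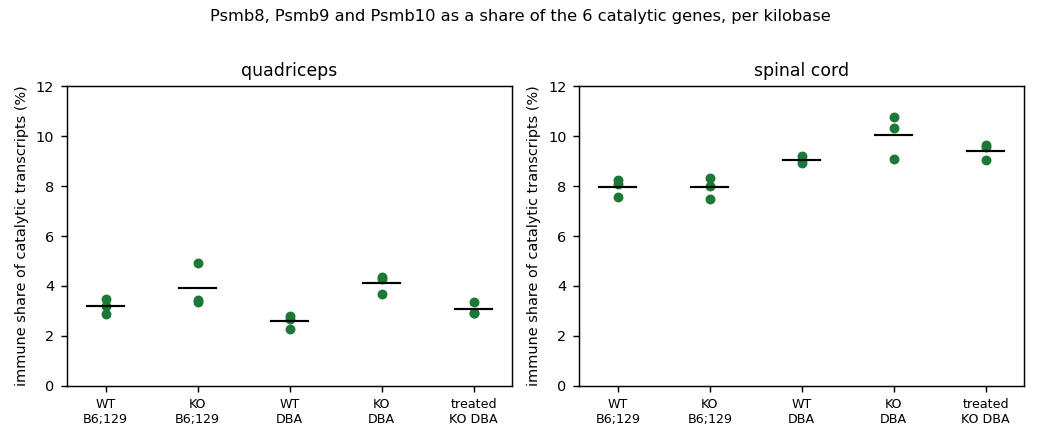
Share of the 6 catalytic genes' signal per kilobase that came from Psmb8, Psmb9 and Psmb10 (%, axis from 0), with 1 point per library and a line at the mean of 3. Quadriceps means lay between 2.59% and 4.10% and cord means between 7.95% and 10.1%. In WT B6;129 the summed immune signal per kilobase overlapped between quadriceps and cord, at means of 17.1 and 15.5, while the constitutive sum was 521 and 179. In WT DBA the immune sum was 14.9 and 33.4 and the constitutive sum 559 and 335, both without overlap.

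Of the 2 subunits of PA28, the interferon-inducible ring that opens the 20S core, Psme2 rose on both backgrounds and Psme1 did not pass. Psme2, the beta subunit, stood at 27.5, 29.3 and 32.7 in WT B6;129 and at 41.8, 48.1 and 48.4 in KO. On DBA it stood at 27.3, 28.7 and 29.0 in WT, at 49.3, 51.4 and 53.6 in KO and at 22.8, 25.9 and 30.2 in treated mice. All KO libraries lay above all WT libraries, by 0.62 ± 0.10 and 0.85 ± 0.10 (log2; limma adjusted p = 0.00037 and 2.86e-05). Psme1, the alpha subunit, stood at 41.5, 54.5 and 56.9 in WT B6;129 and at 39.0, 43.5 and 50.2 in KO, which overlapped. Its DBA libraries stood at 52.5, 52.7 and 68.3 in WT and at 48.4, 50.7 and 51.6 in KO, which did not overlap. Its differences of -0.20 ± 0.13 and -0.19 ± 0.13 did not pass (limma adjusted p = 0.274 and 0.281). The same log2 ratio of Psme2 to Psme1 was -0.75 in WT and 0.06 in KO on B6;129, and -1.01 in WT, 0.03 in KO and -0.84 in treated mice on DBA. Psme2 has a named copy, Psme2b, and reads shared with it could not be separated.

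The other activators moved downward or not at all. Psme4, the PA200 activator, known for its role in testis, stood at 434, 523 and 609 in WT B6;129 and at 334, 351 and 379.9 in KO. On DBA it stood at 452, 490.1 and 491 in WT, at 293, 304 and 324 in KO and at 417, 480.4 and 501 in treated mice. KO lay below WT in every library of both pairs, by -0.54 ± 0.11 and -0.64 ± 0.11 (log2; limma adjusted p = 0.00152 and 0.000438). Psme3, the nuclear PA28 gamma subunit, differed by 0.07 ± 0.06 on B6;129 without passing and fell by 0.23 on DBA, from 72.8, 75.5 and 79.1 to 62.0, 65.6 and 66.8 (limma adjusted p = 0.0122). That call was lost under quantile normalisation, at -0.12 (limma adjusted p = 0.127), and in a fit of these groups alone (0.0686). Psmf1, which encodes the inhibitor PI31, passed in neither pair.

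Of the 14 constitutive 20S subunits, 6 rose on B6;129 and 8 on DBA and none fell, where 16.7% and 17.1% of all tested genes were higher and 19% and 22.3% lower, with median differences of 0.15 and 0.24 (log2). Psma5, an alpha ring subunit, stood at 53.4, 58.7 and 60.8 in WT B6;129 and at 76.6, 77.9 and 78.0 in KO, and on DBA at 52.3, 53.8 and 63.8 in WT and at 82.4, 84.2 and 90.0 in KO. It rose by 0.43 ± 0.08 and 0.59 ± 0.08 (limma adjusted p = 0.00128 and 9.72e-05), with KO above WT in every library. Psmb1, a structural beta subunit, rose from 111, 113 and 117 to 146, 148 and 153 on B6;129. Its differences were 0.39 ± 0.06 on both backgrounds (limma adjusted p = 0.000305 and 0.000253).

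Of the 17 subunits of the 19S cap, 6 rose and 1 fell on B6;129, and 5 rose and 1 fell on DBA, beside the same shares of all tested genes (16.7% and 17.1% higher, 19% and 22.3% lower), with medians of 0.12 and 0.06. The ATPase Psmc3 had the largest called difference of its ring, at 0.34 ± 0.07 and 0.37 ± 0.07 (limma adjusted p = 0.00121 and 0.0006). Among the other base subunits, on B6;129 the ubiquitin receptor Psmd4 rose by 0.25 ± 0.08 (limma adjusted p = 0.0288) and the scaffold Psmd1 fell by 0.17 (limma adjusted p = 0.0204). In the lid, Psmd13 rose by 0.31 ± 0.06 and 0.42 ± 0.06 (limma adjusted p = 0.00169 and 0.000166). Psmd3, also of the lid, stood at 142, 162 and 164 in WT DBA and at 110.1, 127 and 139 in KO DBA, and fell by 0.32 (limma adjusted p = 0.00622). The call was lost under quantile normalisation, at -0.18 (limma adjusted p = 0.0712), and in a fit of these groups alone (0.0625). It did not pass on B6;129, where WT gave 138, 147 and 149 and KO gave 156, 157 and 159. The lid subunit Psmd11 rose by 0.39 ± 0.14 on B6;129, from 128, 134 and 136 to 169, 170.2 and 182 (limma adjusted p = 0.0423). On DBA its WT libraries stood at 129, 140.0 and 221, the last in replicate 4, and KO at 158, 161 and 162. The DBA difference was 0.02 ± 0.14 (limma adjusted p = 0.938), and without WT DBA replicate 4 it was 0.25 ± 0.06 (limma adjusted p = 0.00537), a comparison chosen after its values were seen. The B6;129 calls of 3 cap genes rested on single libraries. Psmd11 was lost without any 1 of the 6 libraries (limma adjusted p = 0.0758 to 0.118). Psmd4 was lost without any library but WT replicate 4 (0.0591 to 0.105), and Psmd1 without any but WT replicate 5 (at most 0.0633). Psmd1 was also lost under quantile normalisation, at -0.08 (limma adjusted p = 0.242), and with edgeR (0.0586), and Psmd4 and Psmd11 under median centring (0.0763 and 0.056).

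Several assembly chaperones of both particles rose. For the 19S chaperones, Psmd5, the S5b chaperone, stood at 21.7, 23.5 and 26.5 in WT B6;129 and at 31.2, 36.2 and 38.2 in KO, and rose by 0.55 ± 0.10 and 0.53 ± 0.10 (limma adjusted p = 0.000642 and 0.00076). Psmd10, which encodes gankyrin, rose by 0.37 ± 0.10 and 0.62 ± 0.10 (limma adjusted p = 0.0106 and 0.000352). Psmd9 passed in neither pair. For the 20S chaperones, Psmg4 stood at 3.95, 4.72 and 6.16 in WT B6;129 and at 5.95, 8.24 and 9.04 in KO, which overlapped, and at 6.23, 7.31 and 7.86 in WT DBA and 11.0, 13.9 and 15.2 in KO DBA, which did not. Its differences were 0.60 ± 0.22 and 0.85 ± 0.22 (limma adjusted p = 0.0446 and 0.007). Psmg2, which pairs with Psmg1 to hold alpha subunits, rose by 0.24 ± 0.08 and 0.38 ± 0.08 (limma adjusted p = 0.0401 and 0.00281). On B6;129 the Psmg4 call was lost without KO replicate 2 or 3 or WT replicate 5 or 6 (0.102 to 0.159), the Psmg2 call without KO replicate 1 or 3 or WT replicate 4 or 5 (0.0822 to 0.153), and the Psmd10 call without KO replicate 2 (0.0585). The Psmg4 call was also lost under quantile normalisation (0.0893), with no filter (0.0622) and under median centring (0.0552), and the Psmg2 call under median centring (0.0629) and in a fit of these groups alone (0.07). Pomp, the maturation factor that is not among the 47, rose by 0.56 ± 0.07 and 0.81 ± 0.07 (limma adjusted p = 3.17e-05 and 1.83e-06). Psmc3ip, the recombination factor, was low, at 1.40 to 3.43 on B6;129, and did not pass, at -0.61 ± 0.26 (limma adjusted p = 0.0771), though it was called under quantile normalisation (0.0395) and in a fit of these groups alone (0.0392).

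The pairs on the 2 backgrounds use separate mice and can be set side by side. Higher calls were shared for 16 genes, 88.9% of those on B6;129 and 76.2% of those on DBA, beside 68.7% and 67.1% for all tested genes. Psme4 was called lower in both, and no gene was called in opposite directions. Across the 47 genes the differences correlated with Pearson's r of 0.737, beside 0.742 across all 14113 genes, which describes genes and not replicates. The test of the difference between both KO effects called 0 of the 47 genes by limma, 0 by edgeR and 0 by DESeq2, where 0.283% of all tested genes were called. An unadjusted limma p under 0.05 was found for 5 of the 47, beside 1537 of all 14113 tested genes. Among the 13 shared risers with a promoter window, 9 held the antioxidant motif (69.2%), against 13 of the 27 other genes with one (48.1%). CCAAT was in 2 of the 13 (15.4%) and 12 of the 27 (44.4%), the gamma-activated motif in 0 and 3 (11.1%), and the interferon core in 1 (7.69%) and 4 (14.8%).

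**Figure D3:**
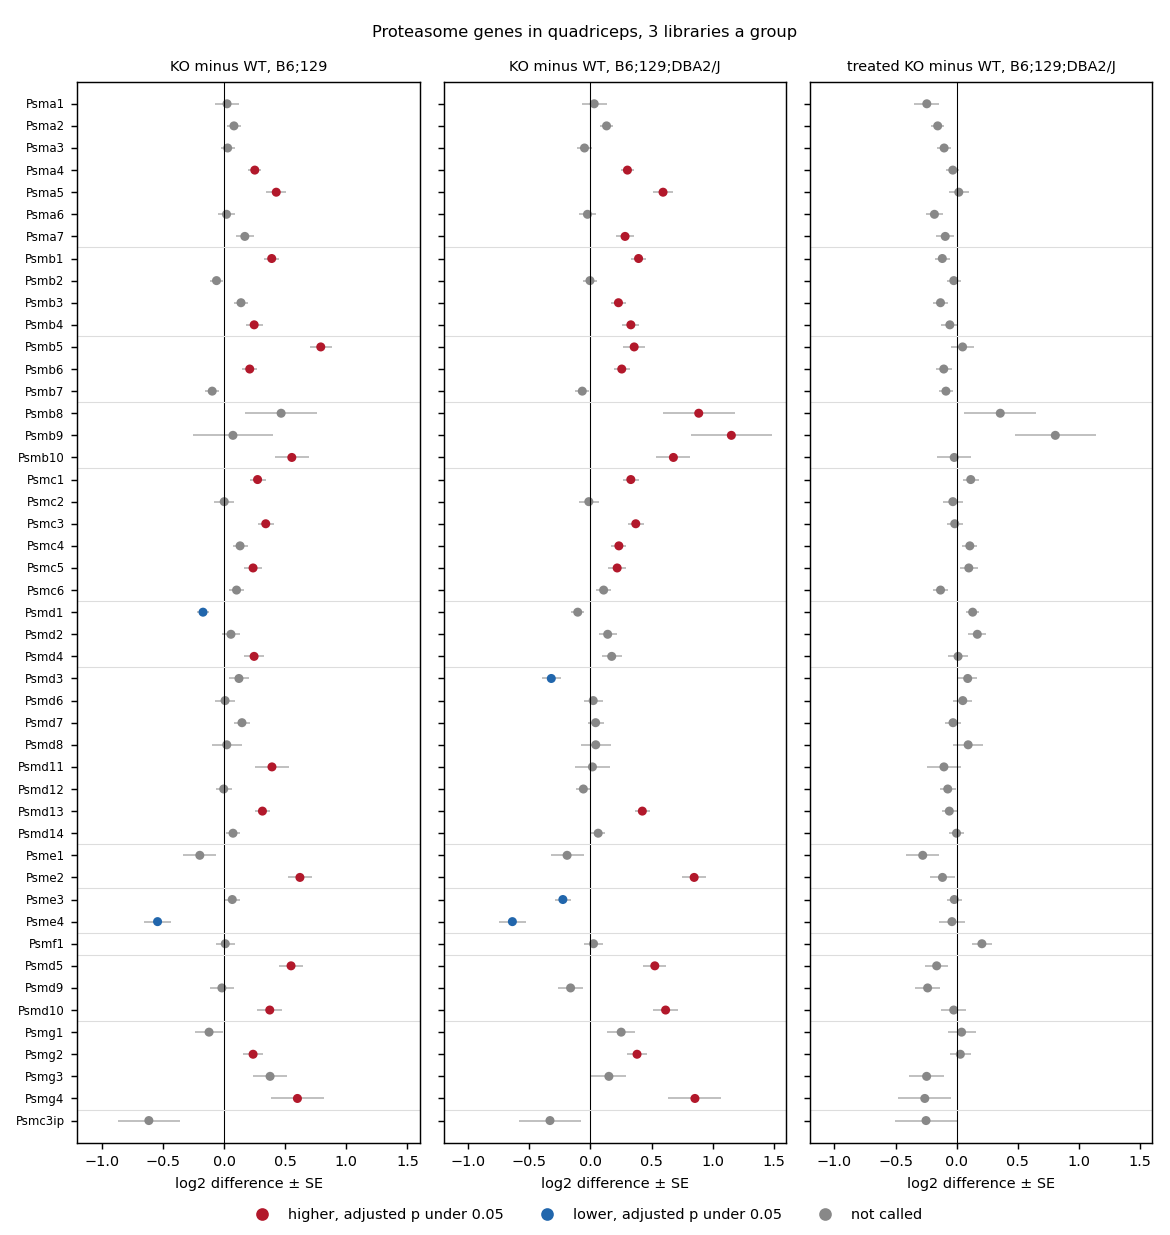
Log2 difference ± SE of each of the 47 genes in quadriceps, ordered by role, for KO minus WT on B6;129, KO minus WT on B6;129;DBA2/J and treated KO minus WT on B6;129;DBA2/J, with 3 libraries a group and colour for an adjusted p under 0.05. Called genes numbered 20 and 24 in the KO panels and 0 in the treated panel, and Psmb9 lay farthest from 0 there, at 0.81.

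In treated mice, transcripts of many 20S subunits, of Psme2 and of assembly chaperones were lower in quadriceps than in untreated KO DBA mice, and Psme4 was higher. Of the 47 genes 21 were lower and 4 higher in treated than in KO DBA mice, where 40.6% of all tested genes were called, 23.6% higher and 17.1% lower, and the median was -0.21 beside 0.05 for all tested genes. This comparison shares its KO DBA libraries with that of KO and WT DBA, so the values are given side by side and their agreement is no separate result. Psme2 differed by -0.97 ± 0.10 between treated and KO (limma adjusted p = 7.19e-06), against 0.85 between KO and WT. Psmb5 differed by -0.31 ± 0.09 (limma adjusted p = 0.0158), against 0.36, a call lost without treated replicate 21, treated replicate 22 or KO DBA replicate 8. Psmb6 differed by -0.36 ± 0.06 and Psmb10 by -0.70 ± 0.14 (limma adjusted p = 0.000491 and 0.00124). Psmb8 and Psmb9 did not pass, at -0.53 ± 0.29 and -0.35 ± 0.33 (limma adjusted p = 0.169 and 0.432). Psmb8 stood at 3.93, 5.48 and 8.31 in treated mice, which overlapped the KO DBA group, and Psmb9 stood at 2.82, 3.14 and 4.22, which overlapped it too. Psmg4 differed by -1.12 ± 0.22 and Psmd5 by -0.69 ± 0.10 (limma adjusted p = 0.00105 and 7.46e-05). Psme4 was 0.60 ± 0.11 higher, Psmd3 0.41 ± 0.08 and Psmd1 0.23 ± 0.05 (limma adjusted p = 0.000584, 0.00105 and 0.00291). Under quantile normalisation Psmd1 gave 0.09 and lost the call (limma adjusted p = 0.169). Psme3 was 0.20 ± 0.06 higher (limma adjusted p = 0.019), a call that edgeR (0.0688) and DESeq2 (0.0819) did not make and that was lost without treated replicate 22 or 24 or KO replicate 7.

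Between treated and WT DBA quadriceps 0 of the 47 genes passed by limma, and 0 by edgeR and by DESeq2, where 2.98% of all tested genes were called. An unadjusted limma p under 0.05 was found for 10 of the 47, beside 3105 of all 14113 tested genes. The median difference was -0.03 beside 0.02. A gene that did not pass is not shown to be at the WT level. Psmb5 differed by 0.05 ± 0.09 and Psme2 by -0.12 ± 0.10, whereas Psmb9 differed by 0.81 ± 0.33 (limma adjusted p = 0.174), with all treated libraries above all WT DBA libraries. The treated group, like the KO groups, kept a low mouse Gaa transcript, at -3.51 against WT DBA.

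Genes around the proteasome were counted by the same test. Of 23 partners and regulators, 5 rose and 6 fell on B6;129 and 7 rose and 7 fell on DBA in KO quadriceps, beside 16.7% and 17.1% of all tested genes higher and 19% and 22.3% lower. In treated against KO DBA, 9 were higher and 6 lower, beside 23.6% and 17.1% of all tested genes. Zfand2a, an arsenite-inducible protein that binds the 19S cap, rose by 1.00 ± 0.17 and 1.11 ± 0.17 and was lower by -1.33 ± 0.17 in treated than in KO DBA mice. Ubqln4, a shuttle for ubiquitin-tagged proteins, fell by 0.46 and 0.61 and was 0.75 higher in treated mice. Rps27a, which encodes a ubiquitin-ribosomal fusion, rose by 0.58 and 0.65 and was lower by -0.85 in treated mice. Of 16 genes of MHC class I loading and interferon regulation, 9 rose and 1 fell on B6;129, 11 rose and none fell on DBA, beside the same shares of all tested genes. Of this list 9 were lower in treated than in KO DBA, beside 17.1% of all tested genes. In that list, the peptide-loading factor Tapbp rose by 0.75 ± 0.09 on both backgrounds, and Ifngr2, a chain of the interferon gamma receptor, by 0.71 and 0.89. The summed macrophage markers given above were also higher in KO quadriceps, and their part in the changes of this list was not tested.

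In the spinal cord most proteasome genes did not pass the test for loss of Gaa. On B6;129, 0 of the 47 genes passed by limma, 0 by edgeR and 0 by DESeq2, where 1.16% of all tested genes were called. An unadjusted limma p under 0.05 was found for 2 of the 47, beside 1733 of all 15838 tested genes. Psmb5 stood at 33.8, 35.7 and 36.4 in WT and at 40.2, 40.7 and 41.1 in KO, without overlap, a difference of 0.20 ± 0.06 that did not pass (limma adjusted p = 0.159). On DBA 2 genes rose and 5 fell, where 13% of all tested genes were called, 7.16% higher and 5.85% lower. Psmb8 stood at 3.63, 3.76 and 4.80 in WT DBA cord and at 5.74, 6.17 and 8.46 in KO, with 4.87, 5.01 and 6.87 in treated mice. It rose by 0.67 ± 0.17 (limma adjusted p = 0.0193), a call lost without WT DBA replicate 1, WT DBA replicate 4 or KO DBA replicate 8 and in a fit of these groups alone (limma adjusted p = 0.0586 to 0.0744). Psmb9 stood at 1.16, 1.27 and 1.69 in WT DBA and at 1.68, 2.75 and 3.15 in KO, which overlapped narrowly, and its 0.67 ± 0.21 did not pass (limma adjusted p = 0.0518). It was called by DESeq2 (0.88, adjusted p = 0.0317), with a pseudocount of 2 (0.41, limma adjusted p = 0.0437), and without WT replicate 3 (0.0459) or KO replicate 6 (0.0226). Psmb10 stood at 37.9, 39.6 and 40.0 in WT DBA and at 34.4, 39.3 and 47.2 in KO, which overlapped. Psme4 rose by 0.27 ± 0.08 in KO DBA cord (limma adjusted p = 0.037), the direction opposite to that in quadriceps, and lost the call without WT replicate 1 or 4 or KO replicate 8 and in a fit of these groups alone (limma adjusted p = 0.0817 to 0.149). The summed macrophage and microglia markers in cord were 222 to 224 in WT B6;129, 513 to 537 in KO B6;129, 238 to 266 in WT DBA, 519 to 574 in KO DBA and 325 to 521 in treated mice, and their part in these results was not tested. Summed astrocyte markers (6 of 6) were 2339 to 2681 in WT B6;129, 3502 to 3841 in KO B6;129, 2300 to 2497 in WT DBA, 4053 to 4373 in KO DBA and 3995 to 4918 in treated cord. Summed endothelial markers in cord were 87.8 to 93.8 in WT DBA and 122 to 134 in KO DBA, and overlapped on B6;129. The part of these was not tested either. The class I and interferon list had 7 of 16 genes higher in KO DBA cord, among them B2m at 1.16 and Tapbp at 0.41, and 1 higher in KO B6;129.

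The 5 genes that fell in KO DBA cord were all of the 19S cap or its assembly. Psmd12, of the lid, stood at 82.0, 83.1 and 90.8 in WT DBA, at 67.5, 69.8 and 76.5 in KO and at 69.8, 70.7 and 74.0 in treated mice, and fell by 0.26 (limma adjusted p = 0.00749). The ATPases Psmc1 and Psmc5 fell by 0.17 and 0.19 (limma adjusted p = 0.0309 and 0.0323). The lid subunit Psmd7 and the chaperone Psmd10 fell by 0.15 and 0.20 (limma adjusted p = 0.0209 and 0.0374). All 5 calls were lost in a fit of these groups alone (limma adjusted p = 0.0702 for Psmd12 to 0.152 for Psmc5), and those of Psmc1, Psmc5 and Psmd7 under quantile normalisation (0.228, 0.123 and 0.0546). With 1 library left out, that of Psmd12 held in each case. Without WT replicate 4, KO replicate 6 or KO replicate 8 the other 4 were lost (limma adjusted p = 0.0546 to 0.129). Between treated and WT DBA cord, 4 of the 47 genes were lower and none higher, where 16.8% of all tested genes were called, 8.81% higher and 7.95% lower. These were Psmc1, Psmc5, Psmd12 and Psmd7, at -0.27, -0.26, -0.25 and -0.17 (limma adjusted p = 0.0027, 0.00654, 0.00656 and 0.0105), in a comparison that shares the WT DBA libraries with the one before. In a fit of these groups alone Psmc5, Psmd12 and Psmd7 lost the call (0.0503, 0.0565 and 0.0799). Psmd12 and Psmc5 lie 11.8 Mb and 13.0 Mb from Gaa on chromosome 11, which carries 9 of the 47 genes, and whether sequence near Gaa differs between these groups was not tested. Between treated and KO DBA cord 0 of the 47 genes passed by limma, edgeR or DESeq2, 1 had an unadjusted p under 0.05, and 0% of all 15838 tested genes passed by limma (1697 at an unadjusted p under 0.05, 2 by edgeR and 167 by DESeq2). The difference between both KO effects in cord called 0 of the 47 genes by limma, edgeR and DESeq2, where 0.524% of all tested genes were called. An unadjusted limma p under 0.05 was found for 3 of the 47, beside 1860 of all 15838 tested genes.

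The KO effect was then tested for a difference between tissues, over the 13187 genes tested in both. On B6;129, 16 of the 47 genes had a higher effect in quadriceps than in cord and 1 a lower one, where 25.4% of all tested genes were called, 12.2% higher and 13.1% lower. On DBA these were 19 and 2, where 32.3% were called, 13.6% higher and 18.7% lower. The effect of Psme2 was 0.56 ± 0.12 and 0.76 ± 0.12 higher in quadriceps, and that of Psmb10 0.65 ± 0.17 on both (limma adjusted p = 0.00175, 6.26e-05, 0.00626 and 0.00491). The effect of Psme4 was lower in quadriceps by -0.52 ± 0.14 and -0.91 ± 0.14 (limma adjusted p = 0.00614 and 2.18e-05). On B6;129 quantile normalisation gave -0.32 and lost that call (limma adjusted p = 0.0853). For Psmb8 the difference between tissues was 0.22 ± 0.35 on DBA and did not pass (limma adjusted p = 0.676). The treatment effect differed between tissues for 24 of the 47 genes, 20 of them lower in quadriceps and 4 higher, where 33.6% of all tested genes were called, 19.6% higher and 14% lower.

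Levels between genes were compared per kilobase of the principal transcript. In WT B6;129 quadriceps Psmb7 stood highest, at 241 signal per kilobase, followed by Psmd8 at 197 and Psmb6 at 186, and Psmb8, Psmb9 and Psmc3ip lowest, at 3.28, 2.36 and 2.07. In WT B6;129 cord the order was led by Psmc5 at 119.9, Psmb6 at 71.3 and Psmb7 at 69.0, and closed by Psmb8 at 1.77, Psmc3ip at 1.09 and Psmb9 at 0.788. Of the 47 genes 42 were higher and 2 lower in WT quadriceps than in cord on B6;129, where 81.3% of all tested genes were called, 44.9% higher and 36.4% lower. On DBA 30 were higher and 9 lower, where 82.5% were called, 45.1% higher and 37.4% lower. The 30 were higher on both backgrounds, Psmd5 and Psmf1 were lower on both, and 4 genes were called in opposite directions. Summed over all genes, the signal was 1164560 to 1602140 per quadriceps library and 600011 to 831471 per cord library. Small differences between tissues therefore depend on the scaling. Under quantile normalisation Psme3 on B6;129 and Psmb6 on DBA changed sign, at -0.00206 and -0.11. The largest difference was that of Psme4, at 80.4 signal per kilobase in WT B6;129 quadriceps and 5.35 in cord, or 3.88 ± 0.10 and 4.40 ± 0.10 on the log2 scale (limma adjusted p = 2.03e-21 and 1.97e-22). Psmd8, of the lid, followed at 2.63 and 2.07. Psmb10 did not pass on B6;129, at -0.18 ± 0.12 (limma adjusted p = 0.161), though edgeR (-0.35, adjusted p = 0.0104) and DESeq2 (-0.33, adjusted p = 0.0138) called it lower in quadriceps. It was lower in quadriceps on DBA, at -1.43 ± 0.12 (limma adjusted p = 5.73e-11). Psmb10 overlapped between backgrounds in WT quadriceps and not in WT cord, at 16.5 to 17.6 on B6;129 and 37.9 to 40.0 on DBA. The difference between the WT cord groups is described below, and its part in the tissue differences, the 4 opposite calls included, was not tested. The immune share of catalytic transcripts was 7.96% in WT B6;129 cord and 7.95% in KO B6;129 cord, and these groups overlapped. On DBA it was 9.07% in WT cord, 10.1% in KO cord and 9.43% in treated cord, and each of these groups overlapped the others.

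**Figure D4:**
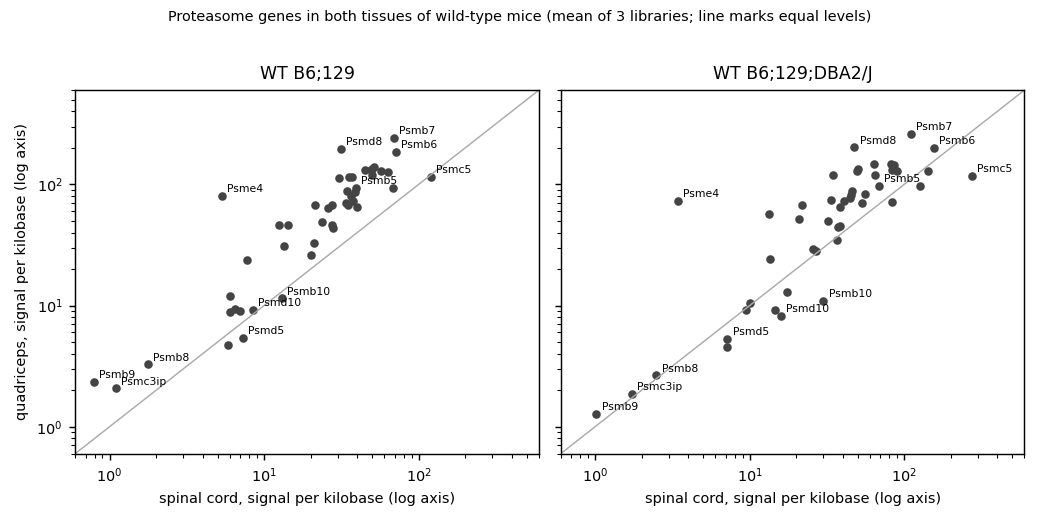
Mean signal per kilobase of each of the 47 genes in WT quadriceps (vertical, log axis) against WT spinal cord (horizontal, log axis), with 3 libraries a mean, for both backgrounds. Most genes lay above the line of equal levels, Psme4 farthest, while Psmb10 lay near the line on B6;129 and below it on B6;129;DBA2/J.

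The WT cord groups differed between backgrounds in most proteasome genes. In WT cord 40 of the 47 genes were higher on DBA than on B6;129 and 3 lower, where 66.8% of all tested genes were called, 32.3% higher and 34.5% lower, and the median was 0.59 beside -0.02. Psmb10 stood at 16.5, 16.9 and 17.6 in WT B6;129 cord and at 37.9, 39.6 and 40.0 in WT DBA cord, and Psmc5 at 156, 157 and 159.9 against 339, 371 and 372. The differences were 1.18 ± 0.09 and 1.19 ± 0.05, and the largest was that of Psmg4, at 1.39 ± 0.15 (limma adjusted p = 3.23e-08, 2.76e-10 and 1.01e-06). Psme4, Psmd1 and Psmd11 were lower on DBA, by -0.63, -0.32 and -0.11. These differences followed transcript length: Pearson's r with log2 length was -0.714 over the 47 genes and -0.515 over all tested genes, given as descriptions since genes share the libraries. Of 35 genes under 2000 bases, 33 were higher and none lower, with a median of 0.68, and of 12 longer genes 7 were higher and 3 lower, with a median of 0.26. Of 4471 tested genes under 2000 bases, 2878 were higher and 452 lower, with a median of 0.54. Of 11339 longer tested genes, 2238 were higher and 5001 lower, with a median of -0.18. In quadriceps the same comparison called 0 of the 47 genes by limma, edgeR and DESeq2, where 2.57% of all tested genes were called. An unadjusted limma p under 0.05 was found there for 6 of the 47, beside 2517 of all 14113 tested genes. The background, the Ltbp4D36/D36 allele, the set of columns and the mitochondrial share changed together between these cord groups and cannot be told apart.

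**Figure D5:**
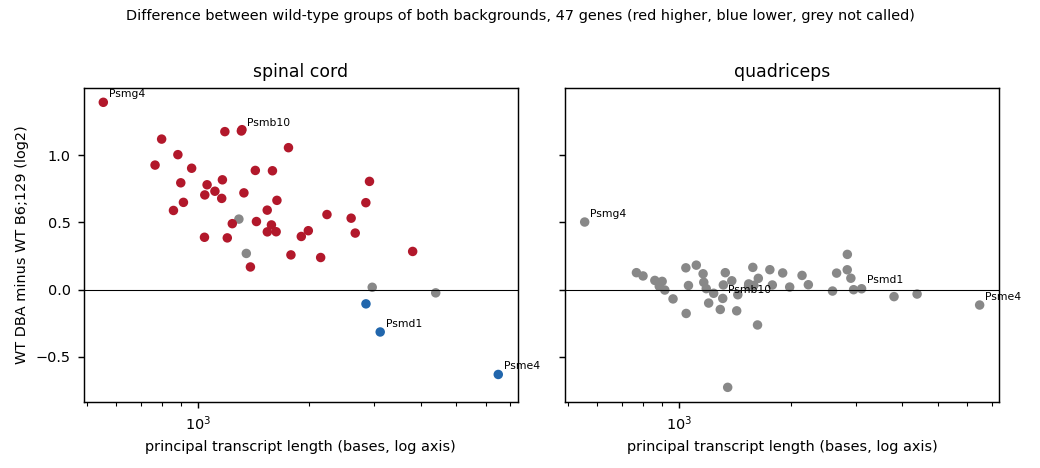
Log2 difference of WT DBA from WT B6;129 for each of the 47 genes against the length of its principal transcript (bases, log axis), in spinal cord and quadriceps, with 3 libraries a group. In cord the short transcripts, led by Psmg4 at 1.39, lay highest and Psme4, the longest, lowest at -0.63, while in quadriceps no gene was called.

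The counting method can touch some of these genes. Psmb5, Psmb6, Psmb7 and Psme2 have named copies in the annotation, and Psmb9 overlaps Tap1 on the opposite strand. Whether strand was used in counting is not stated, so reads from Psmb9 and Tap1 could not be separated with certainty, and values of these genes are uncertain to that extent. Tap1 differed by 1.14 ± 0.33 in KO DBA quadriceps (limma adjusted p = 0.0139), and was chosen for mention because of its overlap with Psmb9.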

How the data were processed

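RNA-seq libraries (poly(A) RNA, NEBNext Ultra, single-end) were deposited as 1 table of normalised signal for 17420 genes in 30 libraries. The submitters' processing notes name cutadapt, RSEM, edgeR, limma and GRCm38, without versions. The steps of the deposited signal show how the authors made it: reads per gene, with 0.5 added, over a library total scaled between libraries. On that reading 100% of values gave whole reads within 0.001. Counting settings, strand included, are not given in the sources used here. Columns were joined to samples by the mouse number in the titles. For 2 treated cord libraries the descriptions name another column than the title does, and the title was followed, on which their pairing with quadriceps rests.

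The table holds no raw counts, so limma 3.58.1 (R 4.3.3, trend) was run per tissue on log2(signal + 0.5) over genes at a signal of at least 1 in 3 libraries. Contrasts between tissues came from 1 fit of all 30 libraries in 10 groups, over genes that passed in both tissues. That fit did not pair the tissues of a mouse. All groups of a fit shared 1 estimate of spread, and p-values were adjusted by Benjamini-Hochberg. Alternatives were edgeR 4.0.16 and DESeq2 1.42.0 on the recovered reads, other filters, pseudocounts and scalings, and leaving out each library. The scripts were tested on simulated data. Tissue contrasts have an alternative with the mouse as a block, since the labels tie both tissues to 1 animal. The deviations of the paired libraries correlated at 0.0721 to 0.315, above 0.1 in 13 of 15 mice. Lengths are those of principal transcripts in GENCODE, which held 17388 of the gene IDs (99.8%).

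The 47 genes and all lists were chosen with earlier results of these data known. A rule set the genes that could be named, though not all of them are named for every comparison. In each comparison these were the 6 catalytic subunits, Psme1, Psme2, Psmc3ip and Gaa. In each role the called gene with the largest difference was added, and every called gene where fewer than 3 were called. From each related list at most the 3 called genes with the smallest adjusted p were named, and over all comparisons the extremes of level and difference. A marker gene that the rule would also name is not reported here.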

Additional observations from a re-analysis of the deposited data

Results flagged for a closer look

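Effects that differed between the tissues of the same mice, by limma's test of the difference, were looked at again. The KO effect differed for 17 of the 47 genes on B6;129, where 25.4% of all tested genes were called. It differed by 0.59 for Psmb5, 0.29 for Psmb6, 0.65 for Psmb10, 0.56 for Psme2 and -0.52 for Psme4 (log2, quadriceps minus cord, limma adjusted p = 0.000366, 0.0139, 0.00626, 0.00175 and 0.00614). On DBA it differed for 21 genes, where 32.3% of all tested genes were called. The values were 0.37, 0.25, 0.65, 0.76 and -0.91 for the same 5 genes (limma adjusted p = 0.0131, 0.0296, 0.00491, 6.26e-05 and 2.18e-05). With the mouse as a block Psmb6 missed the threshold (limma adjusted p = 0.051). It was also lost without quadriceps WT DBA replicate 1 or KO DBA replicate 8 (limma adjusted p = 0.0618 and 0.0947). The same held without cord WT DBA replicate 1 or 3 or cord KO DBA replicate 6 or 8 (limma adjusted p = 0.0641 to 0.0923). The effect of treatment differed for 24 genes, where 33.6% of all tested genes were called. For the same 5 genes it differed by -0.42, -0.41, -0.73, -0.82 and 0.64 (limma adjusted p = 0.00458, 0.000703, 0.0018, 1.94e-05 and 0.000857). The last comparison shares the KO DBA libraries with the one before it. Cord values of both backgrounds differed in level and with transcript length, and the part of this in the tissue differences was not tested.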

How the results depend on the processing

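The quadriceps counts of called genes stayed within 1.5 times under every normalisation, filter and tool, while those in cord did not. In KO against WT DBA cord the 7 calls became 4 under quantile normalisation (2 higher and 2 lower) and 0 in a fit of those groups alone, and 1 to 8 without 1 library. For treated against WT DBA cord the fit of those groups alone gave 1. Leaving out 1 library gave 12 to 17 calls for KO against WT B6;129 quadriceps and 0 to 1 for the difference of both quadriceps KO effects, the 1 without KO DBA replicate 8. Quantile normalisation turned these values: Gaa, KO effect in quadriceps minus cord on B6;129, 0.52; WT quadriceps against cord on B6;129, Psme3 -0.00206, Rps27a -0.062 and Gaa -0.64, and on DBA Psmb6 -0.11; WT DBA against WT B6;129 cord, Canx -0.000569 and Mobp -0.19; and Acta1, treated against KO DBA quadriceps, -0.13. For these the cause was not tested. With the mouse as replicate block, 17, 19 and 23 genes were called for the tissue difference of the KO effect on B6;129, on DBA and of the treatment effect. For WT quadriceps against cord 44 were called on B6;129 and 39 on DBA. In the same order, 3343, 4262, 4479, 10818 and 10988 of all 13187 tested genes were called with the block. The block lost the calls of Psmd7 (0.22, limma adjusted p = 0.051) on B6;129, Psmb6 (0.25, 0.051) on DBA, Psmg3 (-0.49, 0.0552) for treatment Psme2 (0.19, 0.0935) for WT DBA quadriceps against cord and Gaa (0.28, 0.0627) for WT B6;129, and of no other named gene. Depth limits Psmb9 most among the catalytic genes, at 20 to 178 reads per quadriceps library.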
